A study of Mus musculus with 9 samples.

Results

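The expressed long noncoding RNA (lncRNA) genes of mouse lung are described here in DJ-1 knockout and wild-type mice. They were chosen by their measured level, as genes of the biotype lncRNA on chromosomes 1 to 19 with a mean of at least 1 FPKM over all 9 libraries. FPKM is a read count divided by gene length and library size. There were 346 such genes among the 55851 genes of the deposited table. RNA of total lung cells from female C57BL/6J mice was sequenced in 3 groups of 3 libraries. DJ-1 KO mice that received ovalbumin formed the group DJ-1 KO OVA, with libraries DJ1_KO_OVA_263, DJ1_KO_OVA_266 and DJ1_KO_OVA_267, whose values are always given in that order. Wild-type mice given ovalbumin formed WT OVA (libraries 5, 6 and 9), and those given phosphate-buffered saline formed WT PBS (libraries 1, 2 and 3). Ovalbumin challenge is a model of allergic airway inflammation, and DJ-1, the product of Park7, protects cells against oxidative stress. All libraries carried the time label 7 weeks, and the labels name neither the knockout allele nor a knockout group given saline. The comparison of DJ-1 KO OVA with WT OVA therefore concerns challenged lungs.

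An lncRNA is a transcript without a long open reading frame. Some act in the nucleus as scaffolds, such as Neat1 in paraspeckles and Malat1 in splicing speckles. Others serve as hosts: small nucleolar RNAs (snoRNAs), which guide modification of ribosomal RNA, and microRNAs (miRNAs), which repress messenger RNAs through base pairing of their seed, are cut out of their introns or exons. The spliced transcripts of several snoRNA hosts carry a run of pyrimidines at their start, as ribosomal protein messengers do, and are degraded in the cytoplasm by nonsense-mediated decay. Many other lncRNAs lie antisense to a protein-coding gene or share its promoter region.

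The rule chose these genes on their level, so the level itself is a description. Of 9963 measured lncRNA genes, 9229 were autosomal, and 4048 of those had a mean of 0. The 346 genes were 3.75% of the autosomal lncRNA genes, while 53.0% of the 20732 autosomal protein-coding genes reached 1 FPKM. Their median level was 2.16 FPKM, 164 lay between 1 and 2 FPKM, 28 reached 10 FPKM and 3 reached 100 FPKM. Just inside the threshold were Rptoros at 1.00, Gm9895 at 1.01 and Gm43351 at 1.01 FPKM. Just outside were 1110019D14Rik at 0.993, A930005H10Rik at 0.992 and E130307A14Rik at 0.991 FPKM. The mean reached 1 FPKM in each of the 3 groups for 211 genes, in both wild-type groups but not in DJ-1 KO OVA for 92, and in DJ-1 KO OVA alone for 11.

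The name intergenic fits part of the set. In the GENCODE M21 annotation (build GRCm38), 136 of the 346 genes were lincRNA, the intergenic class, and 118 were antisense. A further 56 were processed transcripts, 17 were bidirectional promoter lncRNAs, 13 were sense intronic, 5 were protein-coding and 1 was not listed. By position 140 overlapped their nearest protein-coding gene on the opposite strand and 23 on the same strand. Exon bases were shared with coding exons in 95 genes, and no source used here says whether counting was by strand, so their reads and those of their partners cannot be told apart. In 12 genes at least 30% of the longest transcript matched another annotated transcript at 97% identity or more. Only part of the set therefore stood outside other genes, and the set is called the expressed lncRNA genes below. Predicted-gene, RIKEN or expressed-sequence names made up 287 of the 346.

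The mature miRNAs encoded within these genes show which hosts can be tied to a known regulator. The RefSeq table (GRCm38.p6) gave 24 mature sequences for the 10 genes with a miRNA inside, and those of the hosts described below are printed with the seed, bases 2 to 8, in capitals.
miR-142a-3p, in Mir142hg: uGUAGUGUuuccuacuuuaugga
miR-142a-5p, in Mir142hg: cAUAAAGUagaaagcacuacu
miR-155-5p, in Mir155hg: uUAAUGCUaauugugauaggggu
miR-22-3p, in Mir22hg: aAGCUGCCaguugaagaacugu
miR-15a-5p, in Dleu2: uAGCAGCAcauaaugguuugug
miR-16-5p, in Dleu2: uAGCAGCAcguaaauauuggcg
miR-101a-3p, in E130102H24Rik: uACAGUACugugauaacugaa
The last pair from Dleu2 shared one seed, and the 24 sequences held 23 different seeds. The libraries measured the host transcripts and not the mature miRNAs.

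The transcript starts of snoRNA hosts are shown because 11 of 19 such hosts were lower in DJ-1 KO OVA than in WT OVA. Another 1 was higher, and 8.24% of all tested genes were lower. The count of 11 fell to 0 without WT OVA 9 and to 1 without DJ1_KO_OVA_267. Each window runs from 15 bases before to 25 bases after the RefSeq start (GRCm38.p6), and capitals mark a run of at least 5 C or T that opens with C within 5 bases of the start.
2410006H16Rik, chr11:62602862-62602901, plus strand: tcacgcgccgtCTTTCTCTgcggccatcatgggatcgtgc
Snhg8, chr3:123508312-123508351, minus strand: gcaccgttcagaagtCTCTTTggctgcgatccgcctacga
Snhg18, chr15:32244638-32244677, minus strand: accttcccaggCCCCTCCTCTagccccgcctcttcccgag
Snhg12, chr4:132308663-132308702, plus strand: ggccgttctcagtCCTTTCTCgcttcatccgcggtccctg
Rab26os, chr17:24528236-24528275, plus strand: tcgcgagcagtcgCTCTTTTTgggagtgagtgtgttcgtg
AI506816, chr5:23712643-23712682, minus strand: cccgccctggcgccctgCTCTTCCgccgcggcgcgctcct
Zfas1, chr2:167062919-167062958, plus strand: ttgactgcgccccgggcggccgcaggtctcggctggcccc
The first 5 fell in DJ-1 KO OVA against WT OVA, AI506816 rose, and Zfas1 fell without such a run in this window. Of the hosts with a RefSeq start not printed, Gm26973 and Snhg10 fell with a run and Gas5 fell without one. 1110038B12Rik, with a run, and Snhg1, Snhg5, Snhg15, Snhg16 and Snhg20, without one, did not pass the test. Such a run was found in 9 of the 16 snoRNA hosts with a RefSeq start (56.2%), in 48 of the 178 expressed lncRNA genes with one (27%) and in 18.3% of all 27025 RefSeq promoters. Within the 178 it was in 30.6% of the 62 lower genes and 40% of the 5 higher genes. A tie between the run and the fall was not tested. For the lncRNA genes the RefSeq start nearest the gene start was taken. For all promoters the start at the lowest coordinate of each gene symbol was taken, so these shares rest on unlike choices.

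The 9 libraries held 20812192 to 29080130 reads, recovered from the deposited FPKM. Park7, measured as the check of genotype, had 241 to 427 reads in the DJ-1 KO OVA libraries, 2757 to 3014 in WT OVA and 2627 to 2796 in WT PBS. Its FPKM was 3.96, 7.29 and 3.97 in DJ-1 KO OVA, 57.9, 53.1 and 60.5 in WT OVA and 49.6, 53.8 and 36.7 in WT PBS (adjusted p = 0.00019 against WT OVA, limma). The share of reads on the expressed lncRNA genes was 0.220% to 0.289% in DJ-1 KO OVA, 0.262% to 0.324% in WT OVA and 0.258% to 0.316% in WT PBS. Nothing in the labels ties a library to a single animal, so p-values measure the spread between libraries, which may be technical. All 8 alveolar type 2 cell markers, which include surfactant genes, were measured, with summed FPKM of 6331 to 13534, 32404 to 41400 and 25069 to 41827 in the same order of groups. Most of each sum was Sftpc, at 5089 to 11646, 30215 to 38446 and 22975 to 39155 FPKM. Sftpc did not pass the test against WT OVA (adjusted p = 0.055, limma). Of the 8 markers 2 were lower and 0 higher in that comparison, and Slc34a2 had a log2 difference of -0.02. In RNA of whole tissue, fewer cells of a type and less RNA per cell cannot be told apart.

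The highest expressed lncRNA genes were snoRNA hosts, a short messenger-like RNA of immune cells and a copy of a ribosomal protein sequence. 2410006H16Rik, which holds Snord49a, Snord49b and Snord65, had 88.9, 161 and 65.8 FPKM in DJ-1 KO OVA, 309, 317 and 430 FPKM in WT OVA and 226, 336 and 191 FPKM in WT PBS. All 3 knockout libraries were below all 6 wild-type libraries. Its level fell 3.53-fold against WT OVA (log2 difference -1.82, SE 0.35, adjusted p = 0.015, limma), and the call was lost without DJ1_KO_OVA_267 or WT OVA 9.

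AW112010, a transcript of mouse immune cells reported to encode a short protein, had 101, 172 and 94.3 FPKM in DJ-1 KO OVA, 266.5, 190 and 457 FPKM in WT OVA and 172, 305 and 127 FPKM in WT PBS. The knockout values lay below those of WT OVA and overlapped those of WT PBS, and neither difference passed the test (adjusted p = 0.0616 against WT OVA, limma). The difference from WT OVA passed under 3 of 18 alternatives. In Gm10076 99.7% of the longest transcript recurs elsewhere, with the longest match in Rpl41, a ribosomal protein gene that was at 511 to 1502 FPKM in DJ-1 KO OVA and 1789 to 2748 FPKM in WT OVA. Its own 67.4, 162 and 62.2 FPKM in DJ-1 KO OVA, against 209, 176 and 285 FPKM in WT OVA, are uncertain for that reason.

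**Figure D1:**
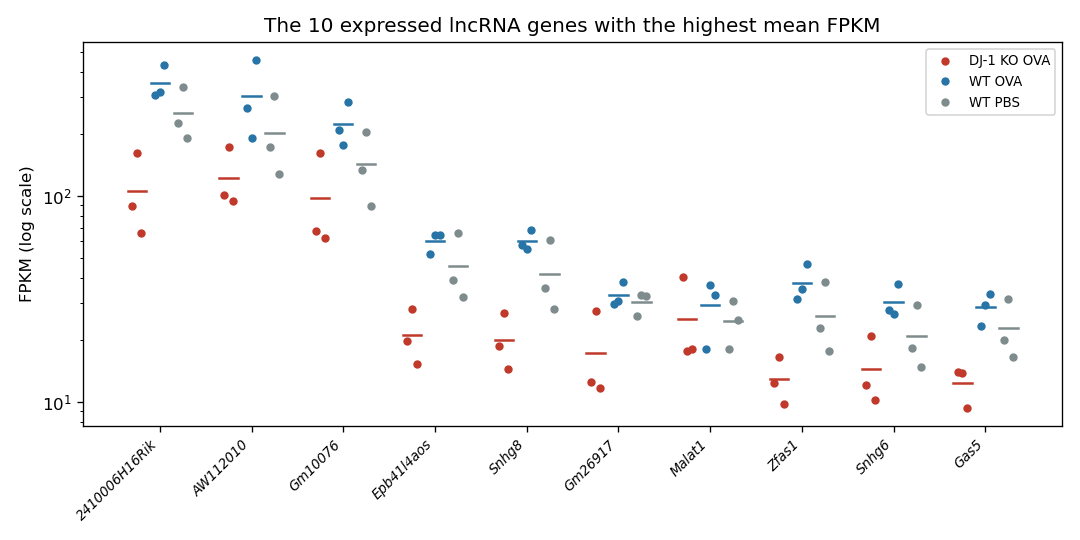
FPKM on a log axis of the 10 expressed lncRNA genes with the highest mean over the 9 libraries, with a point for each library and a bar at the mean of each group of 3. The knockout points of 2410006H16Rik, Epb41l4aos, Snhg8, Zfas1 and Gas5 lie below all wild-type points, whereas those of Malat1 overlap them.

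The first comparison asks how loss of DJ-1 alters lncRNA levels in the challenged lung. In DJ-1 KO OVA 114 of the 346 genes were lower and 14 were higher than in WT OVA at an adjusted p under 0.05 (limma, adjusted over 17716 genes). Among all tested genes 8.24% were lower and 5.93% higher, beside 32.9% and 4.05% of the lncRNA genes. In either direction 128 were called (37%), beside 14.2% of all tested genes. Among autosomal protein-coding genes of at least 1 FPKM the shares were 7.86% and 7.34%. Among the 871 autosomal lncRNA genes tested below 1 FPKM they were 4.94% and 0.804%. The median log2 difference was -0.66 over the expressed lncRNA genes and 0.00 over all genes. These shares are set side by side, and no test of the lncRNA genes against other genes was made. The level rule averaged all 9 libraries, of which 6 were wild-type. A mean of 1 FPKM was reached in both wild-type groups but not in DJ-1 KO OVA by 92 genes, and in DJ-1 KO OVA alone by 11. The counts of lower and higher lncRNA genes are therefore not independent of the rule.

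The libraries differed within the groups. The summed FPKM of the 346 genes was 1217, 1590 and 1107 in DJ-1 KO OVA, 2184, 2101 and 2869 in WT OVA and 1815, 2469 and 1550 in WT PBS. The FPKM sum of all genes was also lower in the knockout libraries than in WT OVA, at 308542, 472548 and 383287 in DJ-1 KO OVA, 591691, 570483 and 602047 in WT OVA and 489318, 551459 and 392285 in WT PBS. As a share of that sum the lncRNA genes made up 0.394%, 0.337% and 0.289% in DJ-1 KO OVA, 0.369%, 0.368% and 0.476% in WT OVA and 0.371%, 0.448% and 0.395% in WT PBS. These shares overlapped, with DJ1_KO_OVA_263 above WT OVA 5 and WT OVA 6. The lowest of the 9 libraries was a DJ-1 KO OVA library for 255 genes, a WT OVA library for 44 and a WT PBS library for 47. Within the knockout group the lowest value lay in DJ1_KO_OVA_263 for 112 genes, in DJ1_KO_OVA_267 for 116 and in DJ1_KO_OVA_266 for 27. All 3 knockout libraries were below all 6 wild-type libraries for 117 genes and above them for 16, beside 8.34% and 8.57% of all tested genes, which are 33.8% and 4.62% of the lncRNA genes. With all libraries 128 genes were called, and the count was 183 without DJ1_KO_OVA_266 and 30 without DJ1_KO_OVA_267. It was 75 without DJ1_KO_OVA_263, and 57, 52 and 41 without WT OVA 5, 6 and 9. Of all tested genes 2510 were called, beside 5694 without DJ1_KO_OVA_266 and 286 without DJ1_KO_OVA_267. That count was 1197 without DJ1_KO_OVA_263, and 548, 448 and 477 without WT OVA 5, 6 and 9. The counts rose and fell together, so this swing is no result about the lncRNA genes.

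How the libraries are scaled moved the size of this difference. The deposited FPKM are centred on the median gene, and scaling to equal FPKM sums moved the median of all genes to 0.46 on the log2 scale. The median of the lncRNA genes was then -0.19, which is 0.65 below that of all genes, with 63 lower and 29 higher. Under that scaling 602 of all genes were lower and 4432 higher.

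The largest rises were in predicted genes with no function given in the table, several of them built of sequence that recurs in the genome. Gm42031 (ENSMUSG00000110386, chr8:85125872-85132289) had 23.0, 31.3 and 17.5 FPKM in DJ-1 KO OVA, 0.0553, 0.0232 and 0 FPKM in WT OVA and 0 FPKM in each WT PBS library. It held 3690 reads over the DJ-1 KO OVA libraries, 3 reads over WT OVA and 0 over WT PBS, so the groups were far apart. The ratio of read rates was 921 against WT OVA, with an exact 95% interval of 315 to 4469, and at least 1083-fold higher against WT PBS, with 3 reads over the group as the floor. These bounds cover counting error only. The model gave a log2 difference of 5.50 against WT OVA (SE 0.22, adjusted p = 8.42e-07, limma), and the call held under all 18 alternatives. Gm42031 met the level rule, and the 0.2 FPKM filter of the test, only through the DJ-1 KO OVA libraries. It is one of the 11 genes that reached 1 FPKM in that group alone, so its choice was not independent of this difference. Of its longest transcript 96.4% recurs elsewhere, with the longest match in Gm43305, so reads could be split between copies.

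Gm43305 on chromosome 14 was itself higher. It had 15.8, 9.32 and 9.29 FPKM in DJ-1 KO OVA, 1.04, 1.91 and 0.639 FPKM in WT OVA and 0.392, 2.39 and 5.35 FPKM in WT PBS. The knockout values did not overlap the wild-type values, which reached 5.35 FPKM in WT PBS 3, and the rise was 7.18-fold against WT OVA (adjusted p = 0.0168, limma). That call was lost without DJ1_KO_OVA_267, WT OVA 5 or WT OVA 9.

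Gm49980 and Gm46620, both on chromosome 18, rose 8.93-fold and 4.49-fold against WT OVA. Gm49980 had 14.6, 7.09 and 13.7 FPKM in DJ-1 KO OVA, 0.484, 1.11 and 0.946 FPKM in WT OVA and 1.15, 1.19 and 2.91 FPKM in WT PBS (adjusted p = 0.00149 against WT OVA, limma). Gm46620 had 7.16, 4.27 and 6.65 FPKM in DJ-1 KO OVA, 0.806, 1.47 and 0.624 FPKM in WT OVA and 0.974, 0.909 and 0.902 FPKM in WT PBS (adjusted p = 0.00193, limma). Neither gene's knockout values overlapped a wild-type value, and both calls held under all 18 alternatives. Gm46620, like Gm42031, reached a group mean of 1 FPKM in DJ-1 KO OVA alone. The whole longest transcript of Gm46620 recurs elsewhere at that identity. Of the 12 genes with at least 30% of shared sequence, 5 were higher and 2 lower, beside the 5.93% and 8.24% of all tested genes.

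Further rises came in Gm43351, Gm42047, AI506816 and AI504432. Gm42047 and AI506816 are among the 12 genes with at least 30% of shared sequence, so their reads could be split between copies. The longest match of AI506816 was in Apobec3, at 7.66 to 9.76 FPKM in DJ-1 KO OVA and 6.13 to 7.48 FPKM in WT OVA. AI506816 (chr5:23698296-23712667) had 22.9, 20.4 and 25.1 FPKM in DJ-1 KO OVA, 10.7, 4.83 and 7.00 FPKM in WT OVA and 8.44, 7.86 and 12.3 FPKM in WT PBS. It rose 3.03-fold (log2 difference 1.60, SE 0.28, adjusted p = 0.0108, limma), a call lost without DJ1_KO_OVA_267. AI504432 had 12.4, 3.81 and 14.3 FPKM in DJ-1 KO OVA against 2.82, 3.11 and 3.37 FPKM in WT OVA, with DJ1_KO_OVA_266 close to the wild-type values. Its rise of 2.61-fold (adjusted p = 0.0425, limma) was lost when any library other than DJ1_KO_OVA_266 was left out. Its neighbour Kcna3, a potassium channel of T cells, had 13.5, 5.34 and 18.2 FPKM in DJ-1 KO OVA, 2.90, 2.46 and 4.09 FPKM in WT OVA and 3.64, 2.59 and 4.21 FPKM in WT PBS. Of 8 T cell markers 4 were higher and 0 lower, with summed FPKM of 175 to 524 in DJ-1 KO OVA, 100.2 to 157 in WT OVA and 106 to 153 in WT PBS, and their part in the rise of AI504432 was not tested.

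The largest falls were also in predicted genes. Gm36551 and Gm36161 among them hold sequence that recurs elsewhere. Gm40787 had 0.0917, 0.802 and 0.387 FPKM in DJ-1 KO OVA, 3.45, 4.68 and 8.02 FPKM in WT OVA and 3.99, 6.45 and 2.36 FPKM in WT PBS. It fell 6.34-fold against WT OVA (adjusted p = 0.00632, limma). Gm16556 had 1.39, 4.06 and 2.35 FPKM in DJ-1 KO OVA, 13.6, 17.3 and 23.0 FPKM in WT OVA and 12.1, 20.1 and 9.37 FPKM in WT PBS. It fell 6.20-fold (adjusted p = 0.00418, limma), and both calls held under all 18 alternatives. Gm40787 stayed under 1 FPKM in every DJ-1 KO OVA library and met the level rule through the wild-type libraries. Its choice was therefore not independent of its fall. Of 8 B cell markers 4 were lower in DJ-1 KO OVA than in WT OVA and 0 higher, with summed FPKM of 98.7 to 234 in DJ-1 KO OVA, 283 to 378 in WT OVA and 321 to 373 in WT PBS, and their part in these falls was not tested.

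Gm31814, Gm48614 and Gm34084 were also among the largest falls. Gm31814 had 0.467, 1.08 and 0.383 FPKM in DJ-1 KO OVA, 4.09, 3.60 and 7.37 FPKM in WT OVA and 5.03, 6.17 and 3.16 FPKM in WT PBS, a fall of 4.79-fold (adjusted p = 0.00529, limma). Gm48614 had 0, 0.621 and 0 FPKM in DJ-1 KO OVA, 2.29, 1.79 and 3.88 FPKM in WT OVA and 5.22, 3.29 and 4.10 FPKM in WT PBS (adjusted p = 0.00794 against WT OVA, limma). Gm34084 had 0.739, 3.20 and 1.32 FPKM in DJ-1 KO OVA, 8.51, 6.89 and 15.4 FPKM in WT OVA and 11.3, 14.9 and 8.60 FPKM in WT PBS, a call against WT OVA that was lost without DJ1_KO_OVA_267. In each of the 3 genes the knockout libraries lay below all 6 wild-type libraries, whose groups overlapped each other, and DJ1_KO_OVA_266 was the highest of the knockout libraries. Gm31814 and Gm48614 had a DJ-1 KO OVA mean under 1 FPKM and met the level rule through the wild-type libraries. Their choice was not independent of their falls.

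Gm36551 shares 32.3% of its exon bases with Pilrb1, a paired immunoglobulin-like receptor gene on the opposite strand. It had 1.16, 2.82 and 0.681 FPKM in DJ-1 KO OVA, 6.42, 9.16 and 16.4 FPKM in WT OVA and 10.8, 11.5 and 4.99 FPKM in WT PBS. Pilrb1 had 1.10, 5.78 and 1.82 FPKM in DJ-1 KO OVA, 12.0, 10.5 and 17.1 FPKM in WT OVA and 21.5, 17.8 and 16.2 FPKM in WT PBS. Both fell (log2 differences -2.48 and -2.23 against WT OVA, adjusted p = 0.0124 and 0.0142, limma), and without the counting strand they may rest on the same reads. Of 8 neutrophil markers 6 were lower and 0 higher in DJ-1 KO OVA, beside 8.24% and 5.93% of all tested genes. Their summed FPKM was 1406 to 4402, against 13012 to 19268 in WT OVA and 8515 to 24573 in WT PBS. Most of each sum was S100a8 and S100a9, which are 694 and 522 bases long. In that length class 35.1% of protein-coding genes were called lower. Cxcr2 overlapped WT OVA (adjusted p = 0.563, limma). The part of the neutrophil markers in the falls was not tested.

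**Figure D2:**
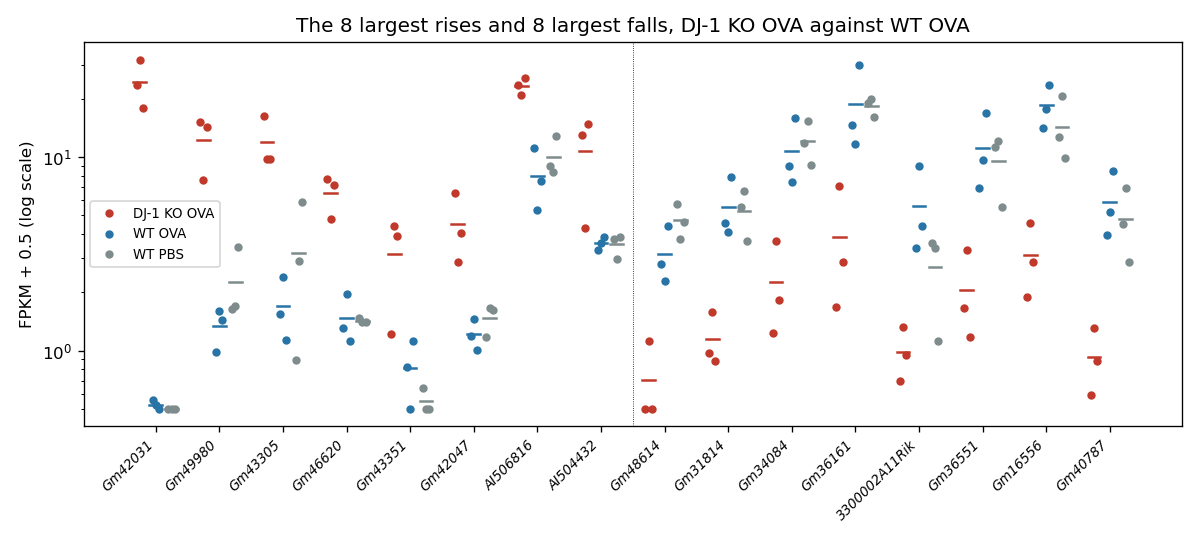
FPKM plus 0.5 on a log axis for the 8 largest rises and the 8 largest falls among genes called in DJ-1 KO OVA against WT OVA, with a point for each library and a bar at each group mean. Rises stand left of the dotted line, where the knockout points lie above the wild-type points of both groups, and falls stand right of it, where the knockout points lie below those of WT OVA. 3300002A11Rik overlaps WT PBS.

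Gene length moved with the difference. The expressed lncRNA genes were short, with a median of 1053 bases against 4224 bases for protein-coding genes of at least 1 FPKM. Below 500 bases the median log2 difference of DJ-1 KO OVA minus WT OVA was -0.74 in 59 lncRNA genes and -1.16 in 33 protein-coding genes. From 500 to under 1000 bases it was -0.73 in 107 and -0.95 in 279 genes of these kinds. In these shortest classes 30.5% and 32.7% of lncRNA genes were called lower, beside 42.4% and 35.1% of protein-coding genes.

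In longer genes the medians of the lncRNA genes lay below those of the protein-coding genes. From 1000 to under 2000 bases the median was -0.74 in 90 lncRNA genes and -0.57 in 1324 protein-coding genes, and 41.1% and 22.8% were called lower. From 2000 to under 4000 bases it was -0.62 in 58 and -0.12 in 3505 genes, with 32.8% and 8.87% called lower. At 4000 bases or more it was 0.01 in 32 and 0.29 in 5837 genes, with 15.6% and 2.36% called lower and 18.8% and 10.4% called higher. With a length trend removed from every library 73 of the 346 genes were lower and 18 higher, and their median was -0.30. Of all 17716 tested genes 979 were then lower and 923 higher. In either direction 26.3% of the lncRNA genes and 10.7% of all tested genes were called. RNA quality was not measured in these files, and its part in the trend was not tested.

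**Figure D3:**
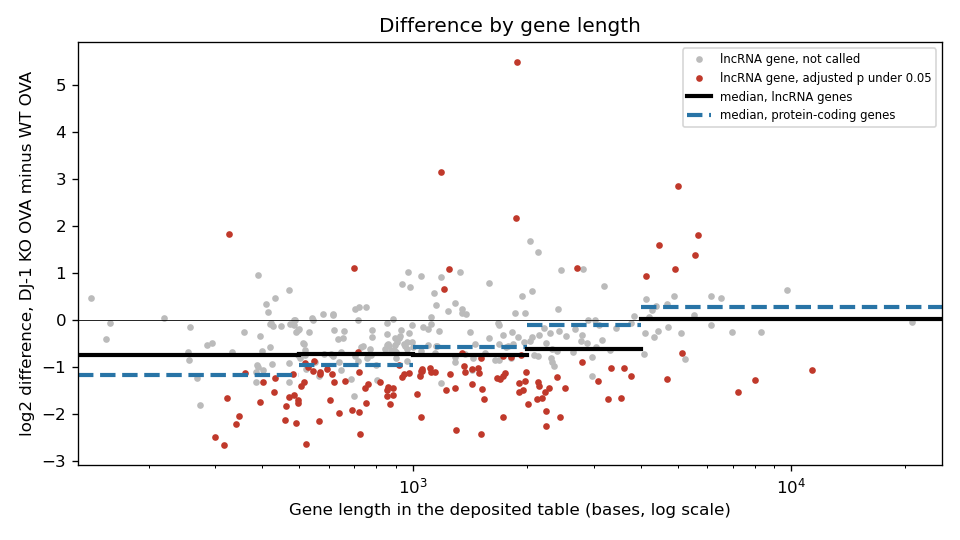
Log2 difference of DJ-1 KO OVA minus WT OVA for each expressed lncRNA gene against its length in bases on a log axis, with red points for genes at an adjusted p under 0.05. Solid bars are medians of lncRNA genes and dashed bars medians of protein-coding genes of at least 1 FPKM in 5 length classes, and the solid bars stay between -0.62 and -0.74 below 4000 bases while the dashed bars climb from -1.16 to -0.12.

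The snoRNA hosts that passed the test were lower in the challenged knockout lung, except AI506816. By position 19 of the expressed lncRNA genes held 47 snoRNA or small Cajal body RNA genes. Of these 19, 11 were lower and 1 was higher in DJ-1 KO OVA than in WT OVA, beside 8.24% and 5.93% of all tested genes, and the median log2 difference was -1.11. With equal FPKM sums 6 were lower and 1 higher, with the length trend removed 8 and 1, and with no filter 5 and 1. The count of lower hosts was 0 without WT OVA 9, 1 without DJ1_KO_OVA_267, 3 without WT OVA 6, 7 without WT OVA 5 or DJ1_KO_OVA_263, and 13 without DJ1_KO_OVA_266. Of all tested genes 1459 were lower, beside 317 without WT OVA 9, 161 without DJ1_KO_OVA_267 and 2973 without DJ1_KO_OVA_266. Snhg8, host of Snora24, had 18.6, 26.8 and 14.4 FPKM in DJ-1 KO OVA, 57.5, 55.2 and 68.1 FPKM in WT OVA and 35.4, 60.9 and 28.1 FPKM in WT PBS. The knockout values lay below all wild-type values, and the fall against WT OVA was 3.05-fold (log2 difference -1.61, SE 0.31, adjusted p = 0.0146, limma), a call lost without DJ1_KO_OVA_267 or WT OVA 9.

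Zfas1, host of Snord12, had 12.3, 16.5 and 9.76 FPKM in DJ-1 KO OVA, 31.7, 35.1 and 46.6 FPKM in WT OVA and 22.8, 38.0 and 17.5 FPKM in WT PBS (adjusted p = 0.0161 against WT OVA, limma). Gas5, an lncRNA that accumulates in growth-arrested cells and holds 10 snoRNA genes, had 14.0, 13.8 and 9.29 FPKM in DJ-1 KO OVA, 23.2, 29.5 and 33.5 FPKM in WT OVA and 19.98, 31.6 and 16.4 FPKM in WT PBS (adjusted p = 0.0245 against WT OVA, limma). Both genes were below every wild-type library in all 3 knockout libraries. The calls of both were lost without DJ1_KO_OVA_267, WT OVA 6 or WT OVA 9, and that of Gas5 also without WT OVA 5. Epb41l4aos, Snhg6, Snhg12, Snhg18, Rab26os, Gm26973 and Snhg10 were also lower, with log2 differences of -0.999 to -1.70. Of these calls, those of Snhg6 and Snhg18 were each lost under 10 of 18 alternatives. That of Snhg12 was lost under 5 and that of Epb41l4aos under 3.

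The other hosts did not pass the test. Snhg1, host of 8 snoRNA genes, had a log2 difference of -1.18 with an adjusted p of 0.0501 (limma), and it passed under 6 of 18 alternatives. Snhg5 had 13.6, 7.78 and 6.88 FPKM in DJ-1 KO OVA against 8.67, 12.1 and 14.0 FPKM in WT OVA, and these values overlapped. AI506816, described above, was the single host that rose, with the limit of shared sequence given there. Its promoter and that of Snhg8, which fell, are printed for comparison, each from 250 bases before to 50 bases after the RefSeq start in GRCm38.p6. Capitals mark GGGCGG (GC box), CCAAT and TATAAA on either strand, so that CCGCCC is a GC box read on the other strand.
AI506816, chr5:23712618-23712917, minus strand: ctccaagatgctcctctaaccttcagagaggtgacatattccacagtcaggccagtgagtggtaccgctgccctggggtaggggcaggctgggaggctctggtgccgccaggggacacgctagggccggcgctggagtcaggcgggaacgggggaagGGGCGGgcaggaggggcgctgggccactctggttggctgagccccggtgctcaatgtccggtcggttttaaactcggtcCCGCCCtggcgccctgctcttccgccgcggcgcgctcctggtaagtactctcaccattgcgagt
Snhg8, chr3:123508287-123508586, minus strand: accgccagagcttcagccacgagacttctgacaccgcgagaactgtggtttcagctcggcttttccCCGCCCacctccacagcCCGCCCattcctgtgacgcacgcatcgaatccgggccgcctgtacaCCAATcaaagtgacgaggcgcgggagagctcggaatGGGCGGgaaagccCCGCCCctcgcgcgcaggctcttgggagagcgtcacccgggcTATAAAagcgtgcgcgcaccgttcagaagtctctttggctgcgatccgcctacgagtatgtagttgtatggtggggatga
AI506816 held 2 GC boxes and neither of the other motifs, and Snhg8 held 4 GC boxes, 1 CCAAT and 1 TATAAA. A GC box was in 13 of 16 snoRNA host promoters (81.2%), in 48.3% of the 178 lncRNA promoters matched and in 35.6% of all 27025 promoters. CCAAT was in 31.2%, 36.5% and 37.8% of these sets and TATAAA in 31.2%, 10.7% and 14.1%. CACGTG (E box) was in 12.4% of the 178 lncRNA promoters, beside 7.09% of all promoters. These are matches of letters on both strands and not binding sites, and the starts of all promoters were chosen by the other rule given above.

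The snoRNA hosts were also set against saline-treated wild-type lungs. Of the 19, 3 were lower and 1 was higher in DJ-1 KO OVA than in WT PBS, beside 4.47% and 4.07% of all tested genes, with a median log2 difference of -0.84. The count of lower hosts was 0 without DJ1_KO_OVA_267, WT PBS 1 or WT PBS 2, and 10 without DJ1_KO_OVA_266. Of all tested genes 792 were lower, beside 229, 239 and 306 without DJ1_KO_OVA_267, WT PBS 1 and WT PBS 2. Without DJ1_KO_OVA_266 it was 1995 genes. In WT OVA against WT PBS 0 of the 19 hosts passed the test and their median was 0.37. These comparisons share libraries with the one above, so their values are only set side by side. Among the proteins that act with snoRNAs, 9 were tested, and 1 was lower and 0 higher in DJ-1 KO OVA against WT OVA. That gene was Nop10, a core protein of pseudouridylation particles, at 22.2, 51.5 and 26.8 FPKM in DJ-1 KO OVA, 66.5, 65.3 and 78.0 FPKM in WT OVA and 52.9, 65.2 and 40.7 FPKM in WT PBS (adjusted p = 0.038 against WT OVA, limma). Of 13 nonsense-mediated decay genes 1, Magoh of the exon junction complex, was lower and 0 were higher (adjusted p = 0.0448, limma). Among all tested genes 8.24% were lower and 5.93% higher, so neither count is a result about its list. The median log2 differences of the 2 lists were 0.32 and 0.23. Nop10 and Magoh are 1109 and 770 bases long, in length classes where 22.8% and 35.1% of protein-coding genes were called lower.

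**Figure D4:**
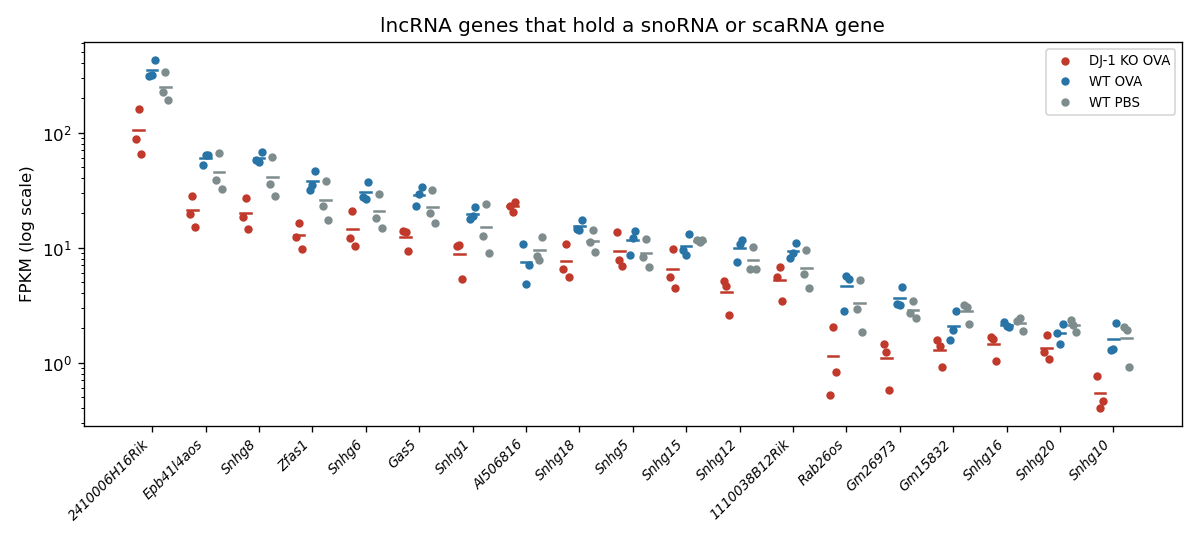
FPKM on a log axis of the 19 expressed lncRNA genes that hold a snoRNA or small Cajal body RNA gene, ordered by mean level, with a point for each library and a bar at each group mean. Red knockout points lie below the WT OVA points in most genes, overlap them in Snhg5, and lie above all wild-type points in AI506816.

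All 10 miRNA hosts had a negative difference, in a set where 68 of 346 genes (19.7%) had a positive difference against WT OVA. Snhg10 and Snhg20 are also counted among the snoRNA hosts, so the groups of hosts are not separate. Against WT OVA 6 were lower and 0 higher in DJ-1 KO OVA, beside 8.24% and 5.93% of all tested genes, with a median log2 difference of -1.03, and with equal FPKM sums or no filter 1 was lower. With the length trend removed 2 were lower. The count was 0 without DJ1_KO_OVA_267 and without each of WT OVA 5, 6 and 9, 1 without DJ1_KO_OVA_263, 3 without WT PBS 1, and 8 without DJ1_KO_OVA_266. Lower calls among all tested genes also fell, to 161 without DJ1_KO_OVA_267 and to 310 to 338 without a WT OVA library. Mir22hg, host of miR-22, had 7.87, 9.44 and 7.78 FPKM in DJ-1 KO OVA, 13.6, 14.2 and 15.4 FPKM in WT OVA and 17.7, 16.1 and 14.6 FPKM in WT PBS. The knockout libraries were below all 6 wild-type libraries, and the fall was 1.69-fold against WT OVA (log2 difference -0.75, SE 0.17, adjusted p = 0.0243, limma). The call was lost without DJ1_KO_OVA_263, DJ1_KO_OVA_267 or any of the WT OVA libraries, and under equal FPKM sums or with the length trend removed.

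Mir142hg, host of the blood-cell miRNA miR-142, had 6.70, 14.96 and 3.50 FPKM in DJ-1 KO OVA, 13.9, 15.6 and 23.8 FPKM in WT OVA and 24.4, 20.5 and 29.4 FPKM in WT PBS. DJ1_KO_OVA_266 overlapped WT OVA, and the difference passed the test against WT PBS (adjusted p = 0.0325, limma) but not against WT OVA (adjusted p = 0.0691, limma). Mir155hg, host of the lymphocyte and macrophage miRNA miR-155, had 0.811, 3.19 and 1.06 FPKM in DJ-1 KO OVA, 4.98, 2.56 and 3.58 FPKM in WT OVA and 1.34, 3.77 and 0.863 FPKM in WT PBS. Its groups overlapped and neither comparison with the knockout passed the test. Dleu2, host of miR-15a and miR-16, had 0.825, 1.12 and 0.725 FPKM in DJ-1 KO OVA and 1.92, 2.04 and 3.32 FPKM in WT OVA (adjusted p = 0.0348, limma). E130102H24Rik, host of miR-101a, had 1.39, 1.06 and 0.757 FPKM in DJ-1 KO OVA and 2.55, 2.42 and 2.49 FPKM in WT OVA (adjusted p = 0.0225, limma). Neither of these hosts overlapped between the OVA groups.

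Of 6 expressed lncRNAs with known roles in immune cells, 1 was lower and 0 were higher in DJ-1 KO OVA against WT OVA, beside 8.24% and 5.93% of all tested genes, which is no result about the group. The gene was Ptgs2os2, an inflammation-induced lncRNA of mouse macrophages, at 1.96, 4.004 and 2.65 FPKM in DJ-1 KO OVA against 6.57, 7.10 and 6.12 FPKM in WT OVA (adjusted p = 0.0476, limma). Its call was lost without any 1 of the OVA libraries other than DJ1_KO_OVA_266, and without WT PBS 1. Morrbid, which controls survival of short-lived myeloid cells in mice, had 1.05, 3.97 and 2.01 FPKM in DJ-1 KO OVA and 3.93, 2.44 and 5.47 FPKM in WT OVA, and these values overlapped. The nuclear lncRNAs did not pass the test with all libraries. Malat1 had 40.3, 17.6 and 17.9 FPKM in DJ-1 KO OVA, 18.02, 37.0 and 33.1 FPKM in WT OVA and 18.1, 30.7 and 24.9 FPKM in WT PBS, with overlapping groups (adjusted p = 0.642 against WT OVA, limma).

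Neat1 had 3.13, 2.27 and 2.89 FPKM in DJ-1 KO OVA against 2.22, 3.75 and 2.69 FPKM in WT OVA (adjusted p = 0.927, limma). Tug1 had 6.95, 2.42 and 5.44 FPKM in DJ-1 KO OVA against 2.58, 2.77 and 2.84 FPKM in WT OVA (adjusted p = 0.153, limma), with DJ1_KO_OVA_266 below the wild-type values, and it was higher without that library (adjusted p = 0.0060, limma). Peg13, the only one of 8 listed imprinted lncRNAs in the set, had 8.81, 8.32 and 9.65 FPKM in DJ-1 KO OVA and 9.94, 10.5 and 9.38 FPKM in WT OVA. Under equal FPKM sums the log2 differences of Malat1, Neat1 and Peg13 were 0.35, 0.49 and 0.44. Of 13 paraspeckle proteins 0 passed the test, and of 10 speckle proteins 1, the splicing factor Srsf1, was higher (adjusted p = 0.0485, limma). Among all tested genes 5.93% were higher and 8.24% lower, so these counts are no result about the lists.

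Lower calls outnumbered higher calls in each of the 3 annotation classes described here, as they did among all tested genes, of which 8.24% were lower and 5.93% higher. Of the 136 genes that GENCODE calls lincRNA, 47 were lower and 8 higher in DJ-1 KO OVA than in WT OVA. Of the 118 antisense genes 35 were lower and 3 higher, and of the 17 bidirectional promoter genes 9 were lower and 0 higher. Median log2 differences were -0.74, -0.56 and -0.78. The counts of lower genes ranged from 11 to 67 in the lincRNA class and from 7 to 48 in the antisense class when 1 library was left out, with the lowest without DJ1_KO_OVA_267 and the highest without DJ1_KO_OVA_266. Among all tested genes the lower count likewise ranged from 161 to 2973, at these same libraries. Among the 95 genes that share exon bases with coding exons 24 were lower and 3 higher, and among the others 90 of 250 were lower and 11 higher.

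Neighbouring protein-coding genes had a median difference near 0. Over 311 lncRNA genes with a tested neighbour, the median log2 difference of DJ-1 KO OVA minus WT OVA was -0.65 for the lncRNA gene and 0.09 for its neighbour. The signs were the same in 157 pairs (50.5%), and the rank correlation was 0.19, beside 54.4% and 0.12 over 8905 protein-coding genes and their nearest protein-coding gene. In the 91 pairs with shared exon bases the rank correlation was 0.49. These correlations are across gene pairs of the same 9 libraries and are descriptions. Both genes were called in 26 pairs, 18 in the same direction and 8 in opposite directions. Called pairs were not counted among the protein-coding pairs, so no share stands beside these counts.

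Divergent pairs held 6 of those 8 opposite pairs and 2 of the same-direction pairs. Over all 67 divergent pairs the median log2 difference was -0.87 for the lncRNA gene and 0.07 for its neighbour. The signs were the same in 29 of them (43.3%). With lncRNA genes mostly lower and neighbours near 0, the few called pairs are no result about shared promoters. Gm50340, which starts 139 bases from Incenp, was lower by 1.11 on the log2 scale while Incenp, a mitotic chromosome passenger protein, was higher by 1.40. Incenp had 11.4, 5.43 and 7.21 FPKM in DJ-1 KO OVA and 3.32, 2.11 and 2.44 FPKM in WT OVA. 2610306M01Rik, which starts 77 bases from Aak1, a kinase of endocytosis, had a log2 difference of -1.18 where Aak1 had 1.26. These 2 pairs were chosen after their values were seen. Of 8 cell cycle markers 6 were higher in DJ-1 KO OVA and 0 lower, and their part in the values of Incenp was not tested.

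**Figure D5:**
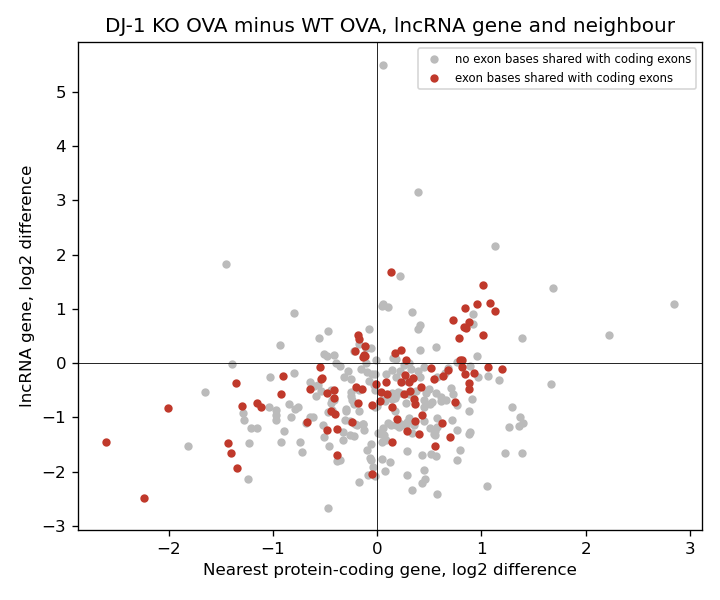
Log2 difference of DJ-1 KO OVA minus WT OVA of each expressed lncRNA gene on the vertical axis against that of its nearest protein-coding gene on the horizontal axis, for 311 pairs. Red points are lncRNA genes that share exon bases with coding exons, and most points lie below the horizontal zero line on both sides of the vertical one.

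The second comparison asks how ovalbumin challenge alters these genes in wild-type lung. In WT OVA against WT PBS 0 of the 346 genes passed the test (limma), beside 0.00564% of all tested genes, which is 1 gene. At an unadjusted p under 0.05 there were 24 lncRNA genes (6.94%), beside 6.47% of all tested genes, and limma-voom on recovered reads also called 0. The median log2 difference was 0.11 and 208 of 346 were positive. With equal FPKM sums, which moved the median of all genes to -0.22, it was -0.14. With the length trend removed it was -0.03.

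The genes with the smallest p in that comparison were Gm33424, Gm15889, Mirt2 and Rptoros. Gm33424 had 16.4, 11.4 and 14.2 FPKM in WT OVA and 6.74, 5.69 and 4.81 FPKM in WT PBS (log2 difference 1.21, SE 0.21, adjusted p = 0.396, limma), and 11.3, 15.5 and 11.1 FPKM in DJ-1 KO OVA. Both challenged groups lay above WT PBS. Gm15889 had 3.19, 3.43 and 2.22 FPKM in WT OVA and 1.09, 1.63 and 1.01 FPKM in WT PBS (adjusted p = 0.651, limma). In DJ-1 KO OVA it had 0.285, 0.381 and 0.301 FPKM, below all wild-type values, and it fell 4.15-fold against WT OVA (adjusted p = 0.00101, limma). Gm15889 met the level rule through the wild-type libraries, so its choice was not independent of this fall. Mirt2, an lncRNA induced by bacterial endotoxin in mouse macrophages, had 2.99, 3.22 and 3.62 FPKM in WT OVA and 9.05, 6.23 and 5.20 FPKM in WT PBS (adjusted p = 0.729, limma).

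The third comparison sets the challenged knockout lung against the saline-treated wild-type lung and combines genotype and challenge. Of the 346 genes 83 were lower (24%) and 15 higher (4.34%) in DJ-1 KO OVA, beside 4.47% and 4.07% of all tested genes. The median log2 difference was -0.57. As in the first comparison, these counts are not independent of the level rule. Gm35853, which overlaps Krt80 and holds miR-1941, had 0.345, 2.55 and 0.785 FPKM in DJ-1 KO OVA, 4.75, 3.19 and 4.91 FPKM in WT OVA and 6.13, 6.07 and 7.72 FPKM in WT PBS (adjusted p = 0.00898 against WT PBS, limma). Gm13822 and Gm16120, antisense to Oasl1 and Mad1l1, fell by 2.61 and 2.25 on the log2 scale (adjusted p = 0.0035 and 0.00544, limma). Plet1os, opposite to the epithelial surface gene Plet1, had 3.20, 4.12 and 9.29 FPKM in DJ-1 KO OVA, 2.64, 1.93 and 1.76 FPKM in WT OVA and 1.65, 1.37 and 1.38 FPKM in WT PBS. It rose against WT PBS (log2 difference 1.49, adjusted p = 0.0209, limma), a call lost without any 1 of the WT PBS libraries. Plet1 had 79.4, 183 and 251 FPKM in DJ-1 KO OVA, 90.9, 67.0 and 81.7 FPKM in WT OVA and 74.4, 47.1 and 54.3 FPKM in WT PBS.

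A few genes were set by 1 library. Dgkeos had 12.7 FPKM in DJ1_KO_OVA_263 and 0.0199 and 0.0383 FPKM in the other knockout libraries, with 0.0977, 0.0818 and 0.0238 FPKM in WT OVA and 0.132, 0.548 and 0.107 FPKM in WT PBS. Its neighbour Dgke, a diacylglycerol kinase, had 8.75 FPKM in that library and 1.04 and 1.90 FPKM in the other knockout libraries. Gm15340 had 14.4 FPKM in the same library and 0.962 and 0.697 FPKM in the other knockout libraries. Neither lncRNA passed the test in any comparison. The spread between libraries was widest in the knockout group, with a median SD over the 346 genes of 0.44 on the log2 scale in DJ-1 KO OVA, 0.31 in WT OVA and 0.36 in WT PBS.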

How the data were processed

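Total RNA was made into libraries with the TruSeq RNA kit of Illumina, according to the labels' protocols. Trimmomatic, HISAT2, HTSeq and the build GRCm38.p6 are named, per the submitters' processing notes, without role or version. The authors deposited FPKM for 55851 genes. Whole reads were recovered from FPKM and gene length (100% of values whole within 0.01 reads). The divisor was 0.890 to 1.21 times the recovered total, so the deposited FPKM were already scaled between libraries by the authors. The expressed lncRNA genes held a median of 564 reads each over the 9 libraries, and 85 of 346 had fewer than 10 reads in at least 1 library. Intervals and floors cover counting error only.

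The log2(FPKM + 0.5) of 17716 genes, those averaging at least 0.2 FPKM, entered limma-trend (limma 3.58.1, R 4.3.3). This scale understates the fold change of low genes. All 3 groups shared one fit with 6 residual degrees of freedom. The threshold was an adjusted p of 0.05 after Benjamini-Hochberg. An exact permutation test of 3 against 3 libraries cannot go below p = 0.1. A count model was not used because the unit is FPKM. Gene classes came from GENCODE M21, shared sequence from blastn 2.17.0 and printed sequences from RefSeq, where 178 of 346 genes had a promoter start within 2000 bases on the same strand.

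Named genes were the 10 highest, the called genes furthest from 0 (8 in each direction) (the 4 smallest p where fewer than 4 were called), listed lncRNAs, those nearest the threshold, neighbours of the named genes and the 5 of widest range. The genes and lists were chosen with earlier results of these data known. There were 18 alternatives per comparison, covering other pseudocounts, filters and scalings, the length trend removed, limma-voom on recovered reads, only the groups compared, and each library left out. The voom library sizes were median-of-ratios sizes in place of the planned TMM, a choice made after seeing the data.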

Additional observations from a re-analysis of the deposited data

How the results depend on the processing

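For DJ-1 KO OVA and WT OVA, 128 called lncRNA genes became 52 with no filter and 30 to 183 with 1 library left out, and the 2510 called genes of the whole table became 645 with no filter, 5034 with equal FPKM sums, 1131 with only the 2 groups compared and 286 to 5694 with 1 library left out. In WT OVA against WT PBS the 1 called gene became 2 with no filter, 0 with a pseudocount of 0.1, a mean of at least 1 FPKM, equal FPKM sums, quantile normalization, the length trend removed, limma-voom or only the 2 groups compared, and 0 to 14 with 1 library left out. In DJ-1 KO OVA against WT PBS the 98 called lncRNA genes became 34 with no filter, 65 with equal FPKM sums, 47 with only the 2 groups compared and 32 to 146 with 1 library left out. The 1513 called genes of the whole table became 669 with no filter, 700 with only the 2 groups compared and 436 to 3897 with 1 library left out. The lowest count of lncRNA genes came without DJ1_KO_OVA_267, tied with WT PBS 2 in the comparison with WT PBS. Log2 differences between DJ-1 KO OVA and WT OVA that changed sign, none of them called, were with equal FPKM sums 0.35 in Malat1, 0.44 in Peg13, 0.27 in Snhg5, 0.13 in Mirt2, 0.49 in Neat1, 0.037 in Snhg16 and 0.14 in Snhg20. With the length trend removed Snhg5 was at 0.020, and Neat1 ran from -0.18 to 0.14 with 1 library left out. The cause was not tested. Of 43 called results of named genes 17 were called under every alternative, 25 were lost without DJ1_KO_OVA_267, and 0 changed sign. Another 7 that were not called passed under at least 1 alternative (AW112010, Gm10076, Mir142hg, Snhg1, Snhg15, Tug1 and Mir155hg), each of them without DJ1_KO_OVA_266. No paired analysis was possible because the groups share no replicate numbers. With 3 libraries a group, and 85 of 346 genes under 10 reads in some library, depth limits the lowest genes most.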
